A study of Homo sapiens with 12 samples.

Results

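POSTN, GAS1, GASK1B and EDIL3 were the only 4 genes called lower by edgeR when the mutant kinase PIK3CA H1047R was expressed without insulin. This was out of 22756 genes tested and 60617 gene identifiers counted in 12Z endometriotic epithelial cells. Which genes passed depended on the libraries, filter and method. The 4 genes were chosen by their counts in H1047R vehicle against control vehicle, so their values in vehicle describe the choice and carry no test. In vehicle, the mean level of each gene in H1047R cells was 74.5 to 81.8% of that in control cells. Other genes had larger falls in vehicle without passing an FDR below 0.001. In insulin, a comparison made on 6 other libraries, POSTN fell 4.57-fold, GAS1 4.09-fold, GASK1B 2.89-fold and EDIL3 2.12-fold in H1047R cells relative to control cells.

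Gene expression was measured by RNA-seq in 12Z, a line of epithelial cells immortalized from ectopic endometriosis, in 4 groups of 3 libraries each, which the methods describe as independent experiments. All cells of all groups had received a non-targeting siRNA pool and then, transiently, a pBabe plasmid, either empty (control cells) or carrying PIK3CA H1047R (H1047R cells). After 4 h without serum, cells were given 100 nM insulin or vehicle and collected 24 h later, which gave the groups control vehicle, H1047R vehicle, control insulin and H1047R insulin. The mutant was therefore added on top of the cells' own PIK3CA by transfection of 1 line, and no sorting of transfected cells is described.

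PIK3CA encodes the catalytic subunit p110alpha of a phosphoinositide 3-kinase, which acts downstream of the insulin receptor and activates AKT. H1047R is an activating change in its kinase domain. The 4 genes encode proteins of the cell surface and secretory route. Periostin (POSTN) and EDIL3, also called DEL-1, are secreted proteins of the extracellular matrix that bind integrins. GAS1 is a lipid-anchored surface protein that acts as a Hedgehog co-receptor and was named for its rise in growth-arrested cells. GASK1B is a glycoprotein of the Golgi membrane in a small family of secretory pathway kinases and kinase-like proteins.

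In hg38 with the GENCODE v44 annotation, all 4 genes lie on the minus strand of different chromosomes. POSTN (ENSG00000133110.15) is at chr13:37562583-37598844 and GAS1 (ENSG00000180447.7) at chr9:86944362-86947506, and neither overlaps another annotated gene. GASK1B (ENSG00000164125.15) is at chr4:158124474-158173318 and overlaps the antisense gene GASK1B-AS1. EDIL3 (ENSG00000164176.13) spans 444327 bases at chr5:83940554-84384880 and overlaps EDIL3-DT and RNU6-448P on the plus strand. The libraries kept strand and reverse-strand counts were used, so reads were assigned to these partners by strand. Whether some reads of GASK1B or EDIL3 entered the low counts of the partners was not tested. GASK1B-AS1 averaged 1.19 to 1.92 CPM over the 4 groups and EDIL3-DT 1.87 to 3.57 CPM.

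The sequence just before the annotated gene is shown for the members whose upstream window lies outside the annotated gene span, because the 4 genes were lowered together and their upstream windows can be set side by side. Windows are the 250 bases before the RefSeq start (GRCh38.p14, minus strand, 5′ to 3′), and capitals mark matches to any of 7 short motifs searched on both strands. The forkhead motif was searched as GTAAACA. For the E-box and AP-1 the letters were CACGTG for the former and TGANTCA for the latter. TEAD was searched as GGAATG, while the GC box was given as GGGCGG. The TATA box had the letters TATAAA, and for the core of the GLI motif of Hedgehog signalling these were ACCACCC. For POSTN, the last 76 bases of the window lie in an annotated first exon, so 174 bases are shown.
POSTN, chr13:37598845-37599018: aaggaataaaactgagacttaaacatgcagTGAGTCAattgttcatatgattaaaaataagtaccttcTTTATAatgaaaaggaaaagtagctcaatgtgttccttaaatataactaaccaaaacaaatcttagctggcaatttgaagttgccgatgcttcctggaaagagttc
GAS1, chr9:86947507-86947756: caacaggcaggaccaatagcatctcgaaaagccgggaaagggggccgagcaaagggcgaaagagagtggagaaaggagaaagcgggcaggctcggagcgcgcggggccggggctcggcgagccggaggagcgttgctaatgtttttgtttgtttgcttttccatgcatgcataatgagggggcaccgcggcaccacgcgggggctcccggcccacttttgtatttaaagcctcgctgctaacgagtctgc
EDIL3, chr5:84384881-84385130: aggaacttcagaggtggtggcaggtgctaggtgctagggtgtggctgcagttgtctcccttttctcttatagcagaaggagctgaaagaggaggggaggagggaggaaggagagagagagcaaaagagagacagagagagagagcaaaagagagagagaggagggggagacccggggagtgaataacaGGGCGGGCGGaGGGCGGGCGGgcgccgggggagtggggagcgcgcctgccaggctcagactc

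No motif of the 7 was found in the windows of all 4 genes. The POSTN window held 1 AP-1 match, which starts 220 bases before the RefSeq start, and 2 TATA box matches, the nearer of them 29 bases before it and outside the stretch shown. The EDIL3 window shown, the farther upstream of 2, held 4 GC box matches in overlapping pairs between 47 and 62 bases before the start. The GAS1 window held none of these letters. GASK1B has 2 windows, both inside the annotated gene span and not shown, of which the farther upstream held 1 GLI core match 96 bases before its start. Among 34788 different windows of the same length, 6.59% held the AP-1 letters, 10.8% the TATA box, 42.6% the GC box and 4.15% the GLI core. The forkhead, E-box and TEAD letters, absent from the members' windows, were in 2.98%, 6.31% and 11.9% of them. The windows also differed in base composition, with 36.4% G or C for POSTN against 60% for GAS1 and 61.2% for EDIL3, around a median of 58% over all windows. A match describes letters only.

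Levels are given in CPM, that is, a gene's counts relative to the library's total gene counts on a common scale, after TMM scaling, an adjustment for differences in composition between libraries. Total gene counts ranged from 21483124 to 29255708 in the vehicle groups and control insulin, and from 30071951 to 37918025 in H1047R insulin. The smallest count of any member in any library was 267 reads, for GAS1 in H1047R insulin replicate 1, and the largest was 10466 reads, for POSTN in control insulin replicate 2. Reads placed at several sites made up 8.48 to 9.51% of reads in H1047R insulin and 13.6 to 15.4% in the other groups. That difference moved with every comparison of H1047R insulin below, and its part in them was not tested.

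PIK3CA was checked in each library first. Control vehicle libraries held 89.0, 88.2 and 88.7 CPM and control insulin libraries 81.1, 85.9 and 80.9 CPM in replicates 1, 2 and 3. H1047R vehicle libraries held 312, 180.1 and 215 CPM, and H1047R insulin libraries 734, 714 and 715 CPM. All 6 H1047R libraries were above all 6 control libraries, as their labels have it, and all H1047R insulin libraries were above all H1047R vehicle libraries. PIK3CA was higher by a log2 fold change of 1.41 ± 0.089 (SE) in vehicle (edgeR quasi-likelihood test, Benjamini-Hochberg adjusted p = 2.73e-14) and of 3.12 ± 0.091 in insulin (adjusted p = 2.68e-27). Between insulin and vehicle it differed in H1047R cells (1.62 ± 0.084, adjusted p = 5.33e-19), whereas in control cells it was -0.10 ± 0.091 (adjusted p = 0.672). The gene counts do not separate transcripts of the plasmid from those of the cells' own gene. Insulin treatment and the measured PIK3CA level therefore cannot be told apart in H1047R cells.

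**Figure D1:**
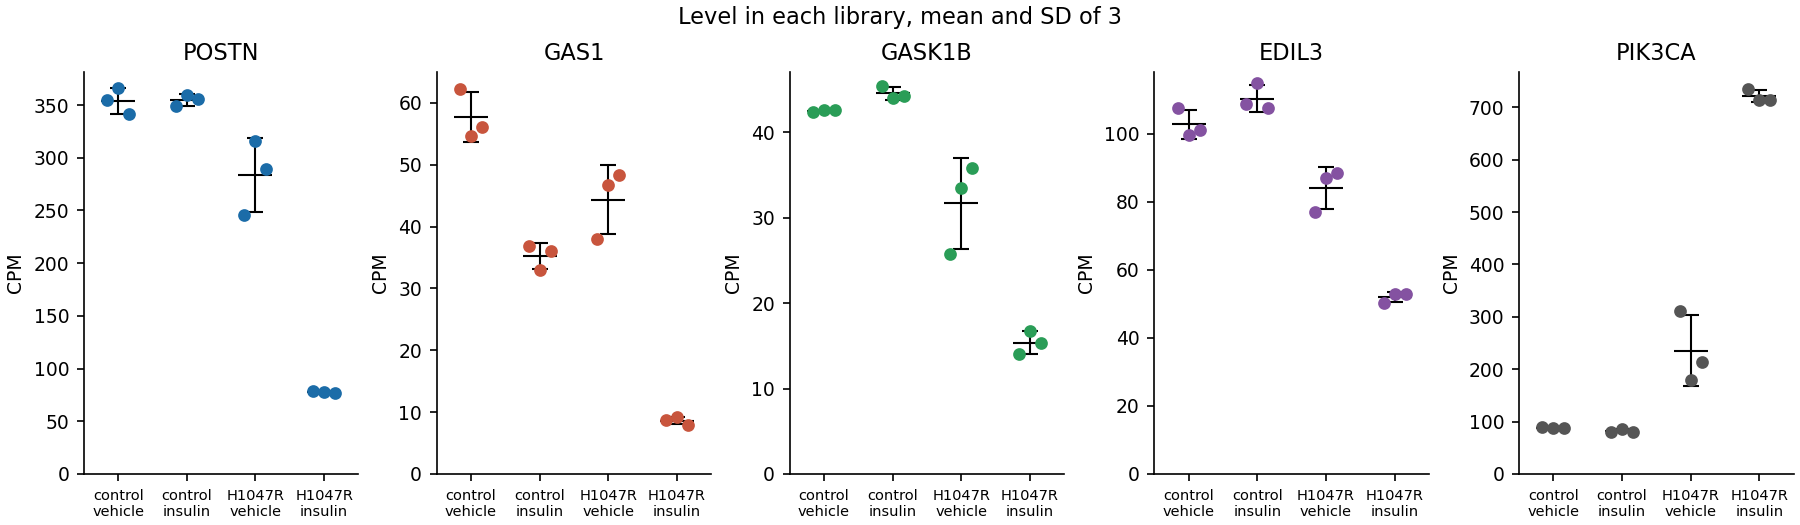
Level of the 4 genes and of PIK3CA in CPM (linear axes from 0) in each of the 12 libraries. Points are libraries, horizontal lines are means and error bars are SD of 3 libraries. In H1047R insulin, POSTN sits at 76.4 to 79.0 CPM, far below the 341 CPM of the lowest control library, while PIK3CA is highest there.

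The lowering of the 4 genes in vehicle is described here with no test. POSTN was at 355, 366 and 341 CPM in control vehicle and at 246, 316 and 289 CPM in H1047R vehicle. GAS1 was at 62.2, 54.7 and 56.1 CPM in control vehicle and at 38.1, 46.7 and 48.4 CPM in H1047R vehicle. For both genes every H1047R vehicle library was below every control vehicle library, by gaps of 25.7 CPM and 6.34 CPM. GASK1B was at 42.4, 42.6 and 42.6 CPM in control vehicle and at 25.7, 33.5 and 35.9 CPM in H1047R vehicle. EDIL3 was at 108, 99.7 and 101 CPM in control vehicle and at 76.9, 86.9 and 88.5 CPM in H1047R vehicle. These groups did not overlap either. The 4 genes were chosen on these same libraries, which favours such a separation. The share of all genes tested whose groups separated in this way is not given here, so the separation describes the choice only. Replicate 1 was the lowest H1047R vehicle library for each of the 4 genes.

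On the log2 scale, the differences in vehicle were -0.42 ± 0.072 (SE) for GASK1B, -0.38 ± 0.065 for GAS1, -0.32 ± 0.050 for POSTN and -0.29 ± 0.049 for EDIL3. The order among them was not resolved, since their standard errors overlapped for neighbours in it. Among the 13302 genes averaging 1 CPM or more, their ranks from the lowest log2 difference were 99, 135, 235 and 308, in that order. The members are the 4 of 4 genes lower at an FDR below 0.001 in vehicle, or 0.0176% of genes tested, against 0.141% that were higher. At the edge of the choice, GAS1 was the member just inside the threshold, with means of 57.7 ± 4.01 and 44.4 ± 5.54 CPM (SD, n = 3). CDK1, a cell cycle kinase, was the gene just outside it, with a mean of 369 CPM in control vehicle that became 317 CPM with H1047R, a log2 difference of -0.22 ± 0.040. Membership depended on the libraries and on the filter. With genes kept only at 1 CPM or more in 3 libraries, no gene was called lower in vehicle by edgeR, although 1167 were at an unadjusted p under 0.05, and DESeq2 with the original filter called 6 genes lower, all 4 members among them. Without H1047R vehicle replicate 1 only POSTN stayed called, at -0.23, and the values of GAS1, GASK1B and EDIL3 became -0.28, -0.30 and -0.23. Without control vehicle replicate 1 or 2 none of the 4 was called, without control vehicle replicate 3 only POSTN was, and without control insulin replicate 2 only POSTN and EDIL3 were. In a fit of the vehicle libraries only, POSTN, GAS1 and GASK1B were called lower and EDIL3 was not.

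Spread between replicates was wider in H1047R vehicle than in the other groups. The coefficient of variation there was 12.5% for POSTN, 12.5% for GAS1, 16.8% for GASK1B and 7.47% for EDIL3. In control vehicle it was 3.48%, 6.96%, 0.215% and 4.10%, in the same order of genes, and in H1047R insulin 1.74%, 7.02%, 8.59% and 3.01%. PIK3CA itself varied by 29.0% between the H1047R vehicle libraries, against 1.60% between the H1047R insulin libraries.

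Within H1047R vehicle, the library with the most PIK3CA had the least of every member. Replicate 1, at 312 CPM of PIK3CA, held 69.3% of the control vehicle mean of POSTN, 66.0% of GAS1, 60.5% of GASK1B and 74.8% of EDIL3. Replicate 3, at 215 CPM of PIK3CA, held 81.7%, 83.9%, 84.3% and 86.1% of them. Replicate 2, at 180.1 CPM of PIK3CA, held 89.2%, 81.0%, 78.8% and 84.6%. POSTN thus followed the inverse order of PIK3CA in all 3 libraries. GAS1, GASK1B and EDIL3 did not between replicates 2 and 3, where the library with less PIK3CA also had less of the member. With 3 libraries in the group no test of such an order was possible. Replicate 1 was also the lowest for CDK1, at 302 CPM against 323 and 325 CPM in replicates 2 and 3. The same held for GFRA1 and MFGE8, relatives of members described below, whereas TGFBI was highest there, at 739 against 735 and 708 CPM. The low values in replicate 1 were thus not particular to the members, and these libraries took part in choosing them. RSAD2, which encodes the antiviral protein viperin and is the gene the study followed up, was also highest in replicate 1, at 12.5 CPM against 2.22 and 3.40 CPM.

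**Figure D2:**
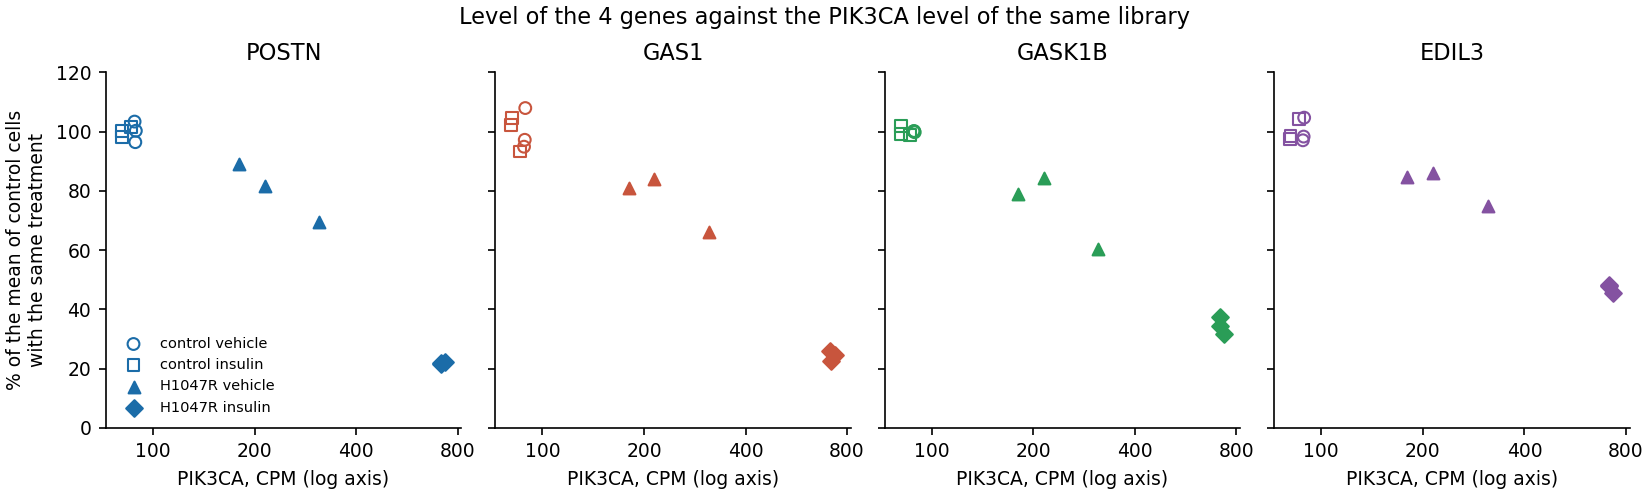
Level of each of the 4 genes in a library, as a percentage of the mean of control cells with the same treatment, against the PIK3CA level of that library in CPM (log axis). Symbols mark the 4 groups of 3 libraries. H1047R vehicle libraries lie between the control libraries and the H1047R insulin libraries on both axes, and the H1047R insulin libraries hold 21.5 to 48.1% of the control mean.

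How H1047R cells differed from control cells when both had insulin was not part of the choice of genes, apart from the shared spread. POSTN was at 349, 359.8 and 356 CPM in control insulin and at 79.0, 77.5 and 76.4 CPM in H1047R insulin. This is a log2 fold change of -2.19 ± 0.053 (adjusted p = 9.47e-30), and the group means were 355 ± 5.66 and 77.6 ± 1.35 CPM (SD, n = 3). The lowest control library was 269.5 CPM above the highest H1047R library, and the H1047R mean was 21.9% of the control mean. POSTN ranked 9 from the lowest log2 fold change among the 13302 genes averaging 1 CPM or more.

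GAS1 was at 36.9, 32.9 and 36.0 CPM in control insulin and at 8.72, 9.19 and 7.99 CPM in H1047R insulin. Its log2 fold change was -2.03 ± 0.080 (adjusted p = 2.44e-23), with group means of 35.3 ± 2.10 and 8.63 ± 0.605 CPM. No library of either group came near the other group, and GAS1 ranked 10, next to POSTN. GAS1 started from a lower level in control insulin than in control vehicle, so the H1047R insulin mean was 24.4% of control insulin but 15.0% of control vehicle.

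GASK1B was at 45.5, 44.1 and 44.3 CPM in control insulin and at 14.1, 16.8 and 15.3 CPM in H1047R insulin. Its log2 fold change was -1.53 ± 0.074 (adjusted p = 2.39e-20), with group means of 44.6 ± 0.765 and 15.4 ± 1.32 CPM, and it ranked 36. Its antisense partner GASK1B-AS1 was at -0.69 ± 0.210 in the same comparison and was not called (adjusted p = 0.00757).

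EDIL3 was at 109, 115 and 107 CPM in control insulin and at 50.3, 53.0 and 52.9 CPM in H1047R insulin. Its log2 fold change was -1.08 ± 0.049 (adjusted p = 3.01e-21), with group means of 110.3 ± 3.97 and 52.1 ± 1.57 CPM. It was the smallest of the 4 changes, at rank 133. EDIL3-DT, transcribed from the other strand next to EDIL3, fell too, by 0.92 ± 0.155 on the log2 scale (adjusted p = 4.91e-06).

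In insulin, 4 of 4 members were called lower at an FDR below 0.001, where 12% of all genes tested were called lower and 11.4% higher. Among genes averaging 1 CPM or more, 20.3% were called lower, and 1.25%, or 166 genes, were called and more than 2-fold lower, as all 4 members were. Of the genes called lower in insulin, the 4 members made up 0.146%. The 32 genes called higher in vehicle were likewise all called higher in insulin, where they made up 1.23% of that list, so the overlap between treatments was complete in both directions. These comparisons share no library, but their spread was estimated in 1 fit of all 12 libraries.

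**Figure D3:**
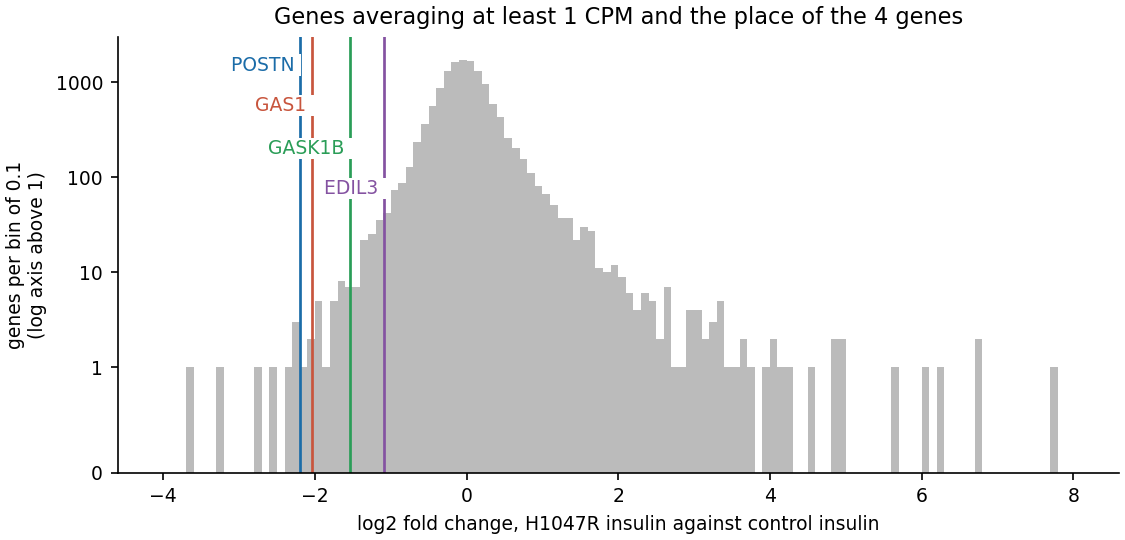
Distribution of log2 fold changes between H1047R insulin and control insulin over the 13302 genes averaging at least 1 CPM, in bins of 0.1 (vertical axis logarithmic above 1). Vertical lines mark the 4 genes, which lie at -2.19 (POSTN), -2.03 (GAS1), -1.53 (GASK1B) and -1.08 (EDIL3) in the lower tail.

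Summed stromal or fibroblast marker counts moved in the same direction. The 14 markers of that list summed to 8399 to 8917 CPM in the libraries of the other groups and to 6456 to 6728 CPM in H1047R insulin, where 8 of 14 were called lower and 2 higher against control insulin. The sum is dominated by a few abundant genes, and single markers, named here after their values were seen, changed by more than it did. DCN and LUM, which encode the matrix proteoglycans decorin and lumican, fell by 3.24 ± 0.096 and 2.22 ± 0.071 on the log2 scale, LUM by about as much as POSTN, while NT5E, a surface nucleotidase gene, rose by 2.25 ± 0.076. In vehicle, DCN was at -0.38 ± 0.078, LUM at -0.33 ± 0.066 and NT5E at 0.34 ± 0.075. No marker of the list was called there (edgeR adjusted p = 0.00574, 0.00587 and 0.0112 for DCN, LUM and NT5E). All 14 were above 1 CPM in every group, the control groups included, although the line is labelled epithelial, and 3 of them (COL1A1, COL1A2 and COL3A1) are also in the list of periostin partners given below. Epithelial markers were detected as well, with 8 of 13 above 1 CPM and GRHL2 at 0 in all libraries. Their sums were 2911 to 3263 CPM in the other groups against 3345 to 3382 CPM in H1047R insulin. The TMM factors were 0.987 to 0.9995 in the other groups and 1.017 to 1.023 in H1047R insulin, so TMM scaling would narrow this difference. Endothelial and leukocyte markers summed to at most 10.3 and 6.61 CPM in any library. The part of these marker levels in the result was not tested. In these bulk libraries, fewer cells that express a gene and less of its RNA per cell cannot be told apart.

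The effect of insulin without the mutant is given as values, since the control vehicle libraries took part in choosing the genes. POSTN, GASK1B and EDIL3 were close in control insulin and control vehicle, with log2 differences of 0.00 ± 0.050, 0.07 ± 0.069 and 0.10 ± 0.048. The libraries of the 2 groups overlapped for POSTN and EDIL3, while for GASK1B all control insulin libraries were above all control vehicle libraries by at least 1.45 CPM. GAS1 went the other way from GASK1B, at 36.9, 32.9 and 36.0 CPM with insulin against 62.2, 54.7 and 56.1 CPM with vehicle. Its log2 difference was -0.71 ± 0.066, its groups did not overlap, and the insulin mean was 61.2% of the vehicle mean. In control cells, 1.15% of genes tested were called lower with insulin and 0.483% higher.

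In H1047R cells, the mean with insulin was below the mean with vehicle for each of the 4 genes. The log2 differences were -2.36 ± 0.079 for GAS1, -1.87 ± 0.053 for POSTN, -1.04 ± 0.077 for GASK1B and -0.69 ± 0.050 for EDIL3. Of all genes tested, 9.8% were called lower and 9.85% higher in this comparison. It shares its H1047R vehicle libraries with the comparison that chose the genes, so no test is given.

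The values with both agents can be set beside the sum of the values with each agent by itself, on the log2 scale and relative to control vehicle. For POSTN, H1047R by itself gave -0.32 and insulin by itself 0.00, a sum of -0.32, while both together gave -2.19. For GAS1, the sum was -1.09 and both together gave -2.74. For GASK1B these were -0.35 and -1.46, and for EDIL3 -0.19 and -0.98. The difference between the H1047R effect in insulin and that in vehicle was -1.87 ± 0.072 for POSTN, -1.66 ± 0.104 for GAS1, -1.11 ± 0.103 for GASK1B and -0.79 ± 0.069 for EDIL3. Each contains the contrast that chose the gene, so it is not tested here. Across the same groups the PIK3CA mean went from 88.6 ± 0.384 CPM in control vehicle to 235 ± 68.2 CPM in H1047R vehicle and 721 ± 11.5 CPM in H1047R insulin (SD, n = 3), and its part in these differences was not tested.

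**Figure D4:**
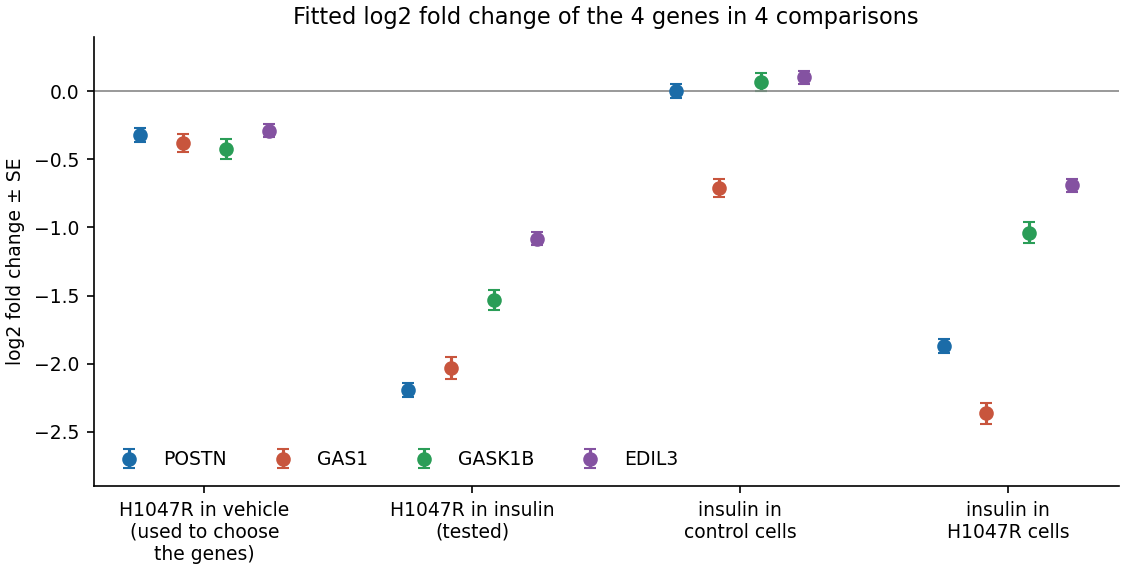
Fitted log2 fold changes of the 4 genes (vertical axis) in 4 comparisons (horizontal axis), with error bars of 1 SE from the fit of all 12 libraries. The values for H1047R in insulin run from -2.19 to -1.08, those for H1047R in vehicle from -0.42 to -0.29, and GAS1 departs from the other 3 genes with insulin in control cells, at -0.71.

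Levels of different genes were compared per length, as counts per kb of annotated exon, scaled to the same sum in every library. In control vehicle, POSTN was the most abundant of the 4 at 274 ± 7.92 (SD, n = 3), above 97.6% of genes tested. GAS1 at 77.5 ± 4.80 and EDIL3 at 74.6 ± 2.52 differed by less than their spread, and GASK1B was lowest at 22.8 ± 0.304. In H1047R insulin the order was POSTN at 64.6 ± 1.10, EDIL3 at 40.6 ± 1.26, GAS1 at 12.5 ± 0.887 and GASK1B at 8.88 ± 0.774. EDIL3 and GAS1 were thus level in control vehicle on this scale and separated by more than their spread in H1047R insulin.

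The closest relative of each gene was measured too. TGFBI, which encodes the paralogue of periostin, was at 721 ± 18.0 CPM in control insulin and 628 ± 14.7 CPM in H1047R insulin, a log2 fold change of -0.20 ± 0.037 (adjusted p = 2.43e-05), while in vehicle it was -0.01 (adjusted p = 0.941). MFGE8, which encodes lactadherin and shares its domain types with EDIL3, fell in insulin by 0.40 ± 0.042 on the log2 scale (adjusted p = 1.84e-10) and was at -0.11 in vehicle (adjusted p = 0.244). GFRA1, a GDNF co-receptor related to GAS1, fell in insulin by 0.89 ± 0.057 (adjusted p = 1.71e-16), from 82.6 ± 5.53 to 44.6 ± 0.178 CPM, and was at -0.06 in vehicle (adjusted p = 0.714). The changes of these 3 relatives were smaller in size than those of the members they are related to, a difference between genes that was not tested. GASK1A, the paralogue of GASK1B, had at most 7 reads in any library and was not called (adjusted p = 0.0486). The cells therefore held GASK1B transcripts with hardly any of its paralogue.

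In the lists below, the 4 members are left out of every count and median, and the median over all genes tested in the insulin comparison was -0.02 on the log2 scale. Of 32 other matricellular and integrin-binding glycoproteins tested, the class of POSTN and EDIL3, 13 were lower and 6 higher in H1047R insulin than in control insulin, with a median log2 fold change of -0.18. VTN, which encodes vitronectin, fell by 1.31 ± 0.160. FBLN7 and FBLN1, both fibulins of the matrix, fell by 0.93 ± 0.088 and 0.90 ± 0.057. CCN3, a matricellular growth regulator, rose by 0.95 ± 0.053, from 35.3 ± 1.45 to 68.2 ± 1.87 CPM. With insulin in control cells, 11 of the 32 were called lower and 1 higher, against 1.15% and 0.483% of all genes tested.

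Of 20 integrins and partners of periostin in collagen assembly, 10 were lower and 5 higher, with a median of -0.11. The fibrillar collagen genes COL3A1, COL1A2 and COL5A2 fell by 1.22 ± 0.039, 0.96 ± 0.038 and 0.85 ± 0.043 on the log2 scale. COL3A1 went from 2122 ± 124 to 909 ± 27.6 CPM. ITGA6, the integrin alpha chain that pairs with beta chains to bind laminin, rose by 0.75 ± 0.043. In vehicle, these collagens were at -0.18 ± 0.039, -0.09 ± 0.038 and -0.20 ± 0.043, and none of the 3 was called (adjusted p = 0.0118, 0.286 and 0.0116).

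Of 26 other Hedgehog pathway genes tested, 5 were lower and 5 higher in insulin, with a median of -0.03, close to that of all genes. CDON, a Hedgehog co-receptor like GAS1, fell by 1.00 ± 0.054, from 59.1 ± 4.24 to 29.6 ± 0.711 CPM. HHIP, which encodes a Hedgehog-binding inhibitor, rose by 2.20 ± 0.125, from 3.84 ± 1.35 to 17.6 ± 0.893 CPM. FOXF1, a transcription factor gene, and EVC, a ciliary component of the pathway, rose by 0.67 ± 0.078 and 0.59 ± 0.052. The list therefore had as many calls in either direction. Of 8 other genes tested in the list of GDNF receptors, their ligands and partners, 3 were called, all of them lower. The other 5 were not called, and the median was -0.53. Only the GFRA genes of this list are structural kin of GAS1. The called genes were GFRA3 (-1.12 ± 0.185), GFRA1 and NCAM1 (-0.17 ± 0.040).

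Of 10 other genes for secretory pathway kinases and kinase-like proteins, the family of GASK1B, 4 were lower and 2 higher, with a median of -0.35. PKDCC, a secreted tyrosine kinase gene, and FAM20B, a xylose kinase gene of proteoglycan synthesis, fell by 0.58 ± 0.076 and 0.42 ± 0.046. DIPK2A and FJX1 rose by 0.66 ± 0.062 and 0.40 ± 0.091. All calls in these lists are at an edgeR FDR below 0.001 over all genes tested, of which 23.5% were called in either direction in insulin.

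**Figure D5:**
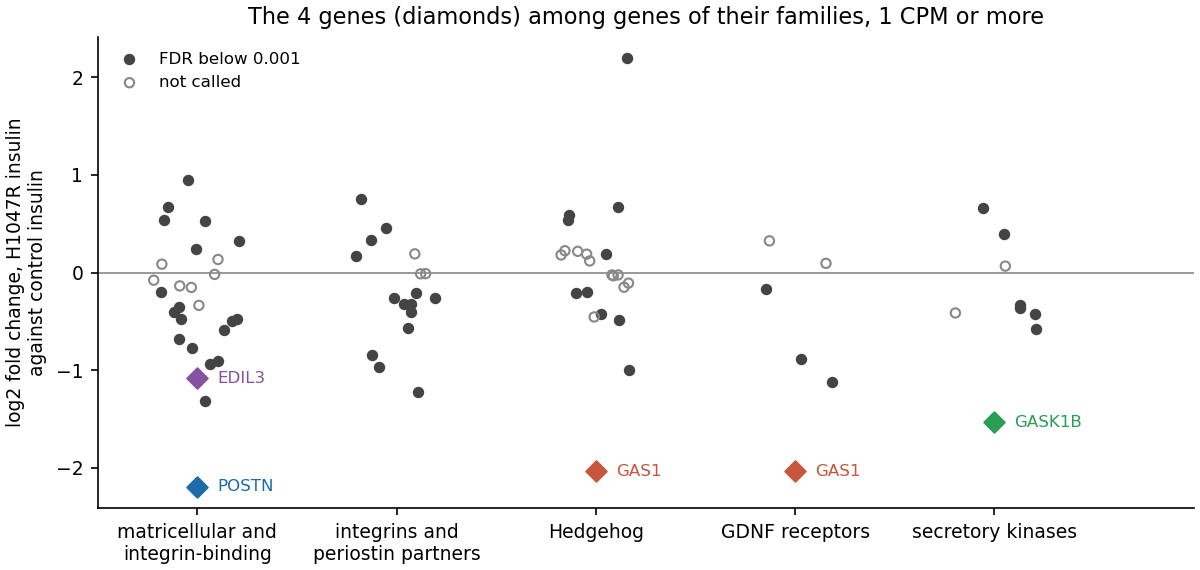
Log2 fold changes between H1047R insulin and control insulin for genes of the 5 lists averaging at least 1 CPM. Filled circles are called at an FDR below 0.001, open circles are not, and diamonds are the 4 genes (GAS1 stands in 2 lists). POSTN, GAS1 and GASK1B are the lowest points of their lists, while VTN at -1.31 lies below EDIL3 at -1.08.

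Genes with the most similar pattern were found by Pearson's r of log2 CPM over the 12 libraries among 13301 genes averaging 1 CPM or more, a description that the 4 separate groups dominate. Nearest to POSTN were COL8A2 (r = 0.997), FSTL1 (r = 0.997) and COL3A1 (r = 0.996), which encode matrix collagens and a secreted glycoprotein. Nearest to GAS1 were BCAM (r = 0.997), CYBRD1 (r = 0.997) and MMP24 (r = 0.995), which encode a laminin-binding surface protein, an iron reductase and a membrane metalloproteinase. NUCKS1 was the nearest gene to both GASK1B and EDIL3 (r = 0.993 for each). GASK1B and EDIL3 were also in each other's nearest 3, at r = 0.992, followed by AK3 for GASK1B (r = 0.990), while MORF4L1 stood between for EDIL3 (r = 0.993).

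POSTN was less similar to GASK1B (r = 0.975) and EDIL3 (r = 0.973) than those were to each other. GAS1 was the least like the rest, at r = 0.959 with POSTN, 0.909 with GASK1B and 0.892 with EDIL3, and it is the member that was lower with insulin in control cells. With Spearman's rho in place of Pearson's r, none of the 3 nearest genes was the same for any member, so the identity of these neighbours depended on the scale.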

How the data were processed

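Per the methods, the authors used cutadapt and Trim Galore to trim reads, checked them with FastQC, aligned them to hg38 with STAR and deposited its raw gene counts, without normalization. Versions of those tools were not given in the sources used here, and the annotation named in the methods is a mouse release, so the human release is not known. Following the study, counts of the reverse strand were taken, which made up 93.5 to 93.7% of strand-specific counts. Rows that name no gene (unmapped, 3.12 to 4.09% of reads, multiply placed, 8.48 to 15.4%, without a feature, 3.91 to 4.55%, and ambiguous, 3.31 to 3.61%) stayed out of library sizes and tests.

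Differential expression was tested for genes with a mean of 1 count or more, using the quasi-likelihood functions glmQLFit and glmQLFTest of edgeR 4.0.16 in R 4.3.3. TMM scaling was applied, and all 12 libraries entered the same fit, which left 8 residual degrees of freedom after the 4 group coefficients. Calls required an FDR (Benjamini-Hochberg, all genes) below 0.001. The SE was derived from the F statistic and the log2 fold change. The study used DESeq2, here an alternative (1.42.0). The code was tested on simulated data. Of 60617 identifiers, 60357 matched a gene name. No replicate pair was alike within counting noise (chi-square per degree of freedom 2.70 to 5.90), and p-values measured the spread between these libraries.

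The members, gene lists and tests were chosen with earlier results of these data known. Named genes are the 4 members, PIK3CA, RSAD2, 4 relatives, the gene just outside the threshold, up to 4 called genes per list with the largest change in insulin among those averaging at least 1 CPM, 3 nearest patterns per member, and overlapping genes. Alternatives were scaling, filter, strand, samples in the fit, threshold, a replicate block and leaving out each library. Knockdown and protein experiments were not analysed here.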

Additional observations from a re-analysis of the deposited data

Results flagged for a closer look

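For the following genes, the difference between H1047R and control cells was not the same with insulin as with vehicle, by the edgeR test of the difference itself at an FDR below 0.001. The 4 members are not among them, because that test contains the contrast that chose them. List genes had been named for their size in insulin, which favours such a difference. Of 26 named genes examined in this way, 19 passed. The share of all genes tested that would pass is not given here. With H1047R, 36 genes were called in vehicle and 5340 in insulin, so the genes below are not shown to be particular. For PIK3CA itself the difference was 1.72 on the log2 scale, and its level was higher in H1047R insulin than in H1047R vehicle.

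More negative with insulin were the genes of the periostin and EDIL3 lists VTN (-1.10), COL3A1 (-1.05), FBLN7 (-0.95), COL1A2 (-0.87), FBLN1 (-0.70), COL5A2 (-0.65) and MFGE8 (-0.29). In the Hedgehog and GDNF receptor lists of GAS1 these were CDON (-0.90) and GFRA1 (-0.82), and among kin of GASK1B, FAM20B (-0.37). EDIL3-DT, which overlaps EDIL3 on the other strand, differed by -1.09. More positive with insulin were RSAD2 (4.81), the Hedgehog pathway genes HHIP (2.02), FOXF1 (0.55) and EVC (0.43), and CCN3 (0.78), ITGA6 (0.71) and DIPK2A (0.68).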

How the results depend on the processing

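The fall of POSTN, GAS1, GASK1B and EDIL3 in H1047R insulin kept its direction and its call in all 21 alternatives for each gene. Leaving out a library gave log2 fold changes of -2.21 to -2.16 for POSTN, -2.08 to -1.98 for GAS1, -1.60 to -1.48 for GASK1B and -1.10 to -1.05 for EDIL3. The highest adjusted p-values, 1.03e-19, 3.67e-16, 2.85e-14 and 1.97e-15, came with a filter of 1 CPM in 3 libraries. Their vehicle values kept their sign in all 20 alternatives, but these reused the libraries that chose the genes, so this is no support. The calls behind the choice did not hold in all of them.

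Against 36 genes called with H1047R in vehicle, DESeq2 called 22, no filter 152, the filter of 1 CPM in 3 libraries 6, an FDR below 0.05 276, and leaving out a library 14 (without control vehicle replicate 1) to 100.0 (without H1047R vehicle replicate 3). Against 4 genes lower, these were 53 without a filter, 0 with the 1 CPM filter (1167 at an unadjusted p under 0.05), 134 at an FDR below 0.05 and 0 to 39 without a library. The count lower in both treatments, 4, became 47, 0, 121 and 0 to 33. In insulin, 5340 genes called became 8774 and 2735 lower became 4557 at an FDR below 0.05. At that threshold, insulin in control cells went from 372 to 1206 (233 to 521 without a library, the lowest without control insulin replicate 2) and insulin in H1047R cells from 4471 to 7812. The cause was not tested.

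Samples with the same replicate number did not deviate together (18 pairs, r from -0.058 to 0.087, with 4 of 12 libraries closest to their own number), so the numbers were not taken to pair them. With the replicate number as a block, 53 genes were called in vehicle, 49 of them higher and 4 lower, and 5336 in insulin, and the members' log2 fold changes in insulin were -2.19, -2.03, -1.54 and -1.08. Depth limits GAS1 most, at 267 to 334 reads per H1047R insulin library.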
